A study of Mus musculus with 12 samples.

Results

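Follicular helper T cells are the CD4 T cells that enter B cell follicles and help B cells make antibody, and 7 genes that define or serve them were followed here: Bcl6, Maf, Tox2 and Ascl2, which encode transcription factors, Cxcr5 and Pdcd1, which encode surface receptors, and Il21, which encodes a secreted cytokine. The members were taken by symbol from a list of known follicular helper genes, and all 7 were among the 12809 genes of the table. The RNA came from sorted LN T cells of female mice, and 4 groups of 3 libraries were made: B6 (C57BL/6) CD4, FlipFlop CD8, FlipFlop CD4 and B6 CD8. In FlipFlop mice the coreceptor proteins are exchanged between their gene loci, so that the Cd4 locus encodes CD8 and the Cd8 locus encodes CD4. Both edited loci are carried by all FlipFlop cells and by no B6 cell, and the Cd8 locus was edited in embryonic stem cells of strain 129. By the labels B6 mice were 10 weeks and FlipFlop mice 14 weeks of age, so strain and age cannot be told apart. No immunization or treatment is named in the labels, and they do not say whether the replicates came from separate mice, so the p-values measure only the spread between these libraries, which may be technical.

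Naive CD4 T cells turn into follicular helper cells when BCL6 is induced, which represses the factor BLIMP-1 (Prdm1) and in turn is repressed by it. ASCL2 and TOX2 act with BCL6 to bring up CXCR5, the receptor for the follicle chemokine CXCL13, while MAF drives the gene of IL-21, the cytokine that makes B cells proliferate and form plasma cells. PD-1, encoded by Pdcd1, is an inhibitory receptor that is held at high density on follicular helper cells and is also induced on other activated T cells. Several of these genes are used by other cells as well: BCL6 and CXCR5 by B cells, MAF by regulatory T cells, and CXCR5, PD-1 and BCL6 by follicular regulatory T cells.

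The groups with high levels of Zbtb7b, the gene of the helper lineage factor ThPOK, are called helper-lineage groups here (B6 CD4 and FlipFlop CD8), and the other groups are called cytotoxic-lineage groups (B6 CD8 and FlipFlop CD4). Zbtb7b stood at 162 to 203 CPM (read counts relative to library size, scaled by the TMM method for library composition) in the helper-lineage libraries and at 1.16 to 2.79 CPM in the others. Transcripts of Cd4 ranged from 637 to 719 CPM in FlipFlop CD4 and from 40.9 to 43.6 CPM in FlipFlop CD8 libraries, and those of Cd8a from 138 to 159 CPM in FlipFlop CD8 and from 0.854 to 0.967 CPM in FlipFlop CD4 libraries, so these transcripts followed the labels in all FlipFlop libraries. Those of Cd8b1, the gene of the CD8 beta chain, did not: they ranged from 1639 to 1962 CPM in the FlipFlop CD4 libraries and from 125 to 151 CPM in FlipFlop CD8. Each library held 26600000 to 33100000 reads on listed genes, and 1 read was worth 0.0286 to 0.0400 CPM. A count of 0 allows up to 3 reads, which is 0.0857 to 0.120 CPM. Such limits cover counting error only. The 8 T cell marker genes (Cd3d, Cd3e, Trac and others) summed to 7229 CPM in B6 CD4 replicate 1 and to 4903 to 5881 CPM in all other libraries. In the tests described below, 3 of the 8 (Trac, Cd3d and Cd3g) were called lower in FlipFlop CD8 than in B6 CD4, against 14.4% of all tested genes. RNA was measured in bulk, so more cells of a type and more RNA per cell cannot be told apart for any of the genes.

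All 7 genes were higher in every helper-lineage library than in every cytotoxic-lineage library, regardless of which coreceptor protein the cells carried. Of all tested genes, 9.90% were separated in this way and direction. The mean level of Maf was 69.0-fold higher in B6 CD4 than in B6 CD8 and 25.7-fold higher in FlipFlop CD8 than in FlipFlop CD4 T cells. The separation was narrow for Bcl6 and Cxcr5, which were 1.76-fold and 1.85-fold higher in B6 CD4 than in B6 CD8, and wide for Maf, Tox2, Pdcd1, Il21 and Ascl2. Compared per kilobase of exon, Cxcr5 had the highest mean level of the 7 genes in each group, from 8.39 CPM per kb in B6 CD8 to 26.1 CPM per kb in FlipFlop CD8. In both helper-lineage groups it was followed by Pdcd1, Maf, Bcl6, Tox2, Il21 and Ascl2, with 14.8, 5.44, 4.83, 3.99, 1.04 and 0.457 CPM per kb in B6 CD4. There Cxcr5 exceeded Pdcd1 by less than its SD in both groups. In both cytotoxic-lineage groups Cxcr5 was followed by Bcl6 and then Pdcd1, with Bcl6 at 2.74 and Pdcd1 at 0.958 CPM per kb in B6 CD8.

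**Figure D1:**
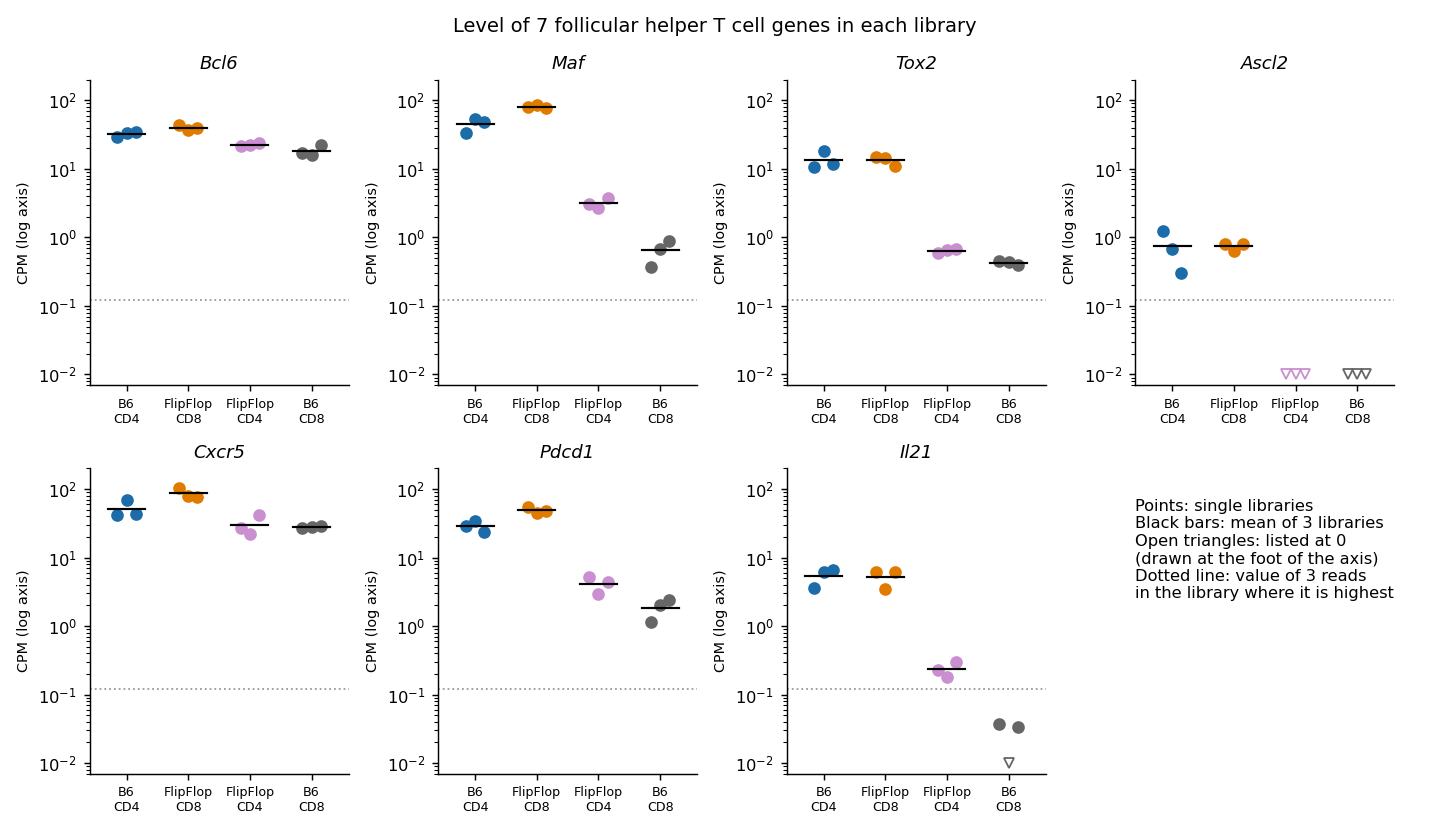
Level of the 7 genes in each of the 12 libraries, in CPM on a log axis, by group; points are single libraries, black bars are means of 3 libraries, open triangles are values of 0 and the dotted line is the highest value that 3 reads have in any library (0.120 CPM). In every panel the B6 CD4 and FlipFlop CD8 points lie above the FlipFlop CD4 and B6 CD8 points, by the smallest margin for Cxcr5, whose lowest helper-lineage value was 41.7 CPM and highest cytotoxic-lineage value 41.3 CPM.

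Differences were tested with limma on log2(CPM + 0.5) over the 11595 genes that reached 1 CPM in 3 or more libraries, and a gene was called at an adjusted p under 0.05 (Benjamini-Hochberg over all tested genes). On this scale the change of genes at low level is understated. Of the 7 genes, 6 were tested, and Ascl2 was left out because it reached 1 CPM in only 1 library. Tox2 and Il21 reached 1 CPM in the 6 helper-lineage libraries only and so passed the filter through them, and counts over the members are therefore given as a description. All 6 tested members were called higher in B6 CD4 than in B6 CD8, against 14.6% of all tested genes. All 6 were called lower in FlipFlop CD4 than in FlipFlop CD8, against 16.0% of all tested genes. At an unadjusted p under 0.0001 with a change of more than 5-fold, Pdcd1, Maf, Tox2 and Il21 were called in both comparisons, that is 4 of 6 members against 0.957% and 1.87% of all tested genes in these directions.

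Bcl6 (ENSMUSG00000022508.5, chr16:23965052-23988852, minus strand), the repressor that defines the follicular helper fate, differed least between the lineages on the log2 scale. Its level was 29.3, 33.1 and 34.7 CPM in the B6 CD4 libraries, 44.3, 36.9 and 39.2 CPM in the FlipFlop CD8 libraries, 21.3, 22.2 and 24.2 CPM in the FlipFlop CD4 libraries and 17.2, 15.7 and 22.2 CPM in the B6 CD8 libraries. The FlipFlop CD8 libraries were the highest and did not overlap the B6 CD4 libraries, whereas the cytotoxic-lineage groups overlapped each other. B6 CD4 exceeded B6 CD8 T cells by 0.81 on the log2 scale (95% confidence interval 0.55 to 1.08, limma adjusted p = 3.0e-04), and FlipFlop CD4 T cells differed from FlipFlop CD8 T cells by -0.81 (-1.08 to -0.55, adjusted p = 2.4e-04). Bcl6 was read in the cytotoxic-lineage groups too, where the B6 CD8 mean was 18.4 ± 3.39 CPM (SD, n = 3). The RefSeq table of promoters (GRCm38.p6, 250 bases before to 50 bases after each start) held 2 starts of Bcl6. Both are shown because BCL6 is known to bind and repress its own gene at sites of the STAT type. Capitals mark matches to the palindrome TTCNNNGAA, which reads the same on both strands, with 1 match at the upstream start (chr16:23988803-23989102, minus strand) and 3 at the downstream start (chr16:23981234-23981533, minus strand). Of 32851 promoters of this length, 8.30% held a match.
Bcl6, upstream start: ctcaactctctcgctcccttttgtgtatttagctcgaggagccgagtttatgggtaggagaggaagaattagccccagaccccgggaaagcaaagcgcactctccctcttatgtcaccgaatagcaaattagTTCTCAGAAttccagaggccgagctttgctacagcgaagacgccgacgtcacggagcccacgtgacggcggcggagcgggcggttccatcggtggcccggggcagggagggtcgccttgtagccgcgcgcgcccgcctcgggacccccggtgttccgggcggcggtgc
Bcl6, downstream start: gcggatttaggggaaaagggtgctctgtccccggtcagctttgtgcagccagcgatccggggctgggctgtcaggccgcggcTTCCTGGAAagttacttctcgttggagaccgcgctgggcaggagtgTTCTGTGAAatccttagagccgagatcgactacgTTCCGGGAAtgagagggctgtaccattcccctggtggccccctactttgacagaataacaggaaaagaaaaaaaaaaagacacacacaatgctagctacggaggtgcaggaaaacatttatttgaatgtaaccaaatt

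Maf (ENSMUSG00000055435.6, chr8:115682942-115707794, minus strand), the factor that drives Il21, had the largest lineage difference on the scale of log2(CPM + 0.5). It was read at 33.7, 53.1 and 47.6 CPM in the B6 CD4 libraries, 80.0, 85.0 and 78.3 CPM in the FlipFlop CD8 libraries, 3.12, 2.65 and 3.72 CPM in the FlipFlop CD4 libraries and 0.374, 0.680 and 0.895 CPM in the B6 CD8 libraries. No library of a group overlapped any library of another group. The difference was 5.30 on the log2 scale between B6 CD4 and B6 CD8 (4.89 to 5.71, limma adjusted p = 1.9e-09) and -4.49 between FlipFlop CD4 and FlipFlop CD8 (-4.90 to -4.08, adjusted p = 7.7e-09). Maf was also called between the groups of a lineage. FlipFlop CD8 exceeded B6 CD4 T cells by 0.87 (0.46 to 1.29, adjusted p = 0.00694), a ratio of means of 1.81, and FlipFlop CD4 exceeded B6 CD8 T cells by 1.69 (1.27 to 2.10, adjusted p = 1.3e-04), a ratio of means of 4.86. Both calls held with any single library left out.

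Tox2 (ENSMUSG00000074607.11, chr2:163203125-163324170, plus strand), an HMG-box factor that supports the follicular program, stood at 10.6, 18.5 and 11.6 CPM in B6 CD4 libraries and at 14.8, 14.5 and 11.1 CPM in FlipFlop CD8 libraries. In FlipFlop CD4 libraries it was read at 0.591, 0.652 and 0.669 CPM, and in B6 CD8 libraries at 0.449, 0.440 and 0.398 CPM, on 11 to 18 reads per library. The helper-lineage groups overlapped, while FlipFlop CD4 stood above B6 CD8 in all libraries. Tox2 differed by 3.88 between B6 CD4 and B6 CD8 (3.48 to 4.28, limma adjusted p = 1.6e-08) and by -3.61 between FlipFlop CD4 and FlipFlop CD8 (-4.00 to -3.21, adjusted p = 3.1e-08), and means differed 31.7-fold and 21.1-fold. Between FlipFlop CD8 and B6 CD4 the difference was 0.02, with an interval of -0.38 to 0.42 (adjusted p = 0.949).

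Ascl2 (ENSMUSG00000009248.6, chr7:142966829-142969264, minus strand), a basic helix-loop-helix factor that brings up CXCR5, was the scarcest member. It was read 33, 21 and 10 times in B6 CD4 and 25, 19 and 28 times in FlipFlop CD8 libraries, and 0 times in each of the 6 cytotoxic-lineage libraries. These reads made 1.24, 0.678 and 0.306 CPM in B6 CD4 libraries and 0.804, 0.628 and 0.800 CPM in FlipFlop CD8 libraries. Against a limit of 3 reads over a group, Ascl2 was at least 20.2-fold higher in B6 CD4 than in B6 CD8 and at least 21.1-fold higher in FlipFlop CD8 than in FlipFlop CD4 T cells. An exact permutation test of the helper-lineage against the cytotoxic-lineage mean, with libraries exchanged within each strain (400 regroupings, two-sided), gave p = 0.005, the smallest value it can give. With same-numbered FlipFlop libraries kept as pairs (160 regroupings, two-sided) the exact permutation p was 0.0125, again the smallest possible. FlipFlop CD8 and B6 CD4 T cells had means of 0.744 ± 0.10 and 0.741 ± 0.470 CPM (SD, n = 3) and overlapped.

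Cxcr5 (ENSMUSG00000047880.15, chr9:44511787-44561877, minus strand), the receptor that leads cells into the follicle, was read at 41.7, 70.1 and 43.6 CPM in the B6 CD4 libraries, 104.7, 79.8 and 76.6 CPM in the FlipFlop CD8 libraries, 27.2, 22.4 and 41.3 CPM in the FlipFlop CD4 libraries and 27, 28 and 28.9 CPM in the B6 CD8 libraries. B6 CD4 replicate 2 stood above the other B6 CD4 libraries and FlipFlop CD4 replicate 3 above the other FlipFlop CD4 libraries, and the cytotoxic-lineage groups overlapped. B6 CD4 exceeded B6 CD8 T cells by 0.84 (0.35 to 1.33, limma adjusted p = 0.0152), a call that was lost without B6 CD4 replicate 2 (0.60, adjusted p = 0.0629). FlipFlop CD4 T cells differed from FlipFlop CD8 T cells by -1.54 (-2.03 to -1.05, adjusted p = 2.1e-04), and means differed 2.87-fold. FlipFlop CD8 exceeded B6 CD4 T cells by 0.77 (0.28 to 1.26, adjusted p = 0.0263). In the annotation Cxcr5 shares 110 bases with Bcl9l on the opposite strand, Maf 2156 bases with the antisense gene Gm15655, Il21 1137 bases with the antisense gene Gm12534 and Bcl6 114 bases with Gm37419. Whether counting used strand is not given in the sources used here, so reads of such partners could not be told apart.

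Pdcd1 (ENSMUSG00000026285.7, chr1:94038305-94052553, minus strand), which encodes the inhibitory receptor PD-1, was read at 28.5, 34.1 and 23.3 CPM in B6 CD4 libraries and at 55.4, 44.7 and 47.8 CPM in FlipFlop CD8 libraries. It was read at 5.22, 2.90 and 4.42 CPM in FlipFlop CD4 libraries and at 1.16, 2.0 and 2.39 CPM in B6 CD8 libraries. As for Maf, no 2 groups overlapped, and the order was FlipFlop CD8, B6 CD4, FlipFlop CD4 and B6 CD8. The CD4 minus CD8 difference was 3.65 in B6 (3.16 to 4.15, limma adjusted p = 1.8e-07) and -3.44 in FlipFlop mice (-3.93 to -2.95, adjusted p = 2.4e-07). FlipFlop CD8 exceeded B6 CD4 T cells by 0.78 (0.29 to 1.28, adjusted p = 0.0251) and FlipFlop CD4 exceeded B6 CD8 T cells by 1.0 (0.51 to 1.49, adjusted p = 0.0175), ratios of means of 1.72 and 2.26.

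Il21 (ENSMUSG00000027718.8, chr3:37222759-37232636, minus strand), the gene of the cytokine that follicular helper cells give to B cells, stood at 3.64, 6.07 and 6.62 CPM in B6 CD4 libraries and at 6.14, 3.51 and 6.23 CPM in FlipFlop CD8 libraries. It was read 7, 5 and 8 times in FlipFlop CD4 libraries and 1, 0 and 1 times in B6 CD8 libraries. The helper-lineage groups overlapped, and FlipFlop CD4 stood above B6 CD8 in all libraries. The CD4 minus CD8 difference was 3.47 in B6 (2.96 to 3.97, limma adjusted p = 3.3e-07) and -2.94 in FlipFlop mice (-3.45 to -2.43, adjusted p = 1.1e-06). The pseudocount understates these. The ratio of reads pooled over each group, relative to depth, was 227 between B6 CD4 and B6 CD8, on 501 against 2 reads (exact counting interval 62.6 to 1882). The ratio of means was 22.4 between FlipFlop CD8 and FlipFlop CD4. Between FlipFlop CD8 and B6 CD4 the log2 difference was -0.04, with an interval of -0.55 to 0.47 (limma adjusted p = 0.913). Between FlipFlop CD4 and B6 CD8, on 20 against 2 reads, the ratio of pooled reads relative to depth was 9.64. Its exact counting interval of 2.34 to 85.1 leaves out the spread between libraries. The log2 difference of 0.49 was not called (limma adjusted p = 0.232). With a pseudocount of 0.1 in place of 0.5 it was 1.44 and was called (adjusted p = 0.0110). The promoters of Ascl2 (chr7:142969215-142969514, minus strand) and Il21 (chr3:37232587-37232886, minus strand) in RefSeq GRCm38.p6 are shown because ASCL2 binds the E-box and both genes were read at most 8 times in any cytotoxic-lineage library. Capitals mark matches to the E-box CANNTG, which reads the same on both strands. Each window held 2 matches, and 72.3% of promoters of this length held at least 1.
Ascl2: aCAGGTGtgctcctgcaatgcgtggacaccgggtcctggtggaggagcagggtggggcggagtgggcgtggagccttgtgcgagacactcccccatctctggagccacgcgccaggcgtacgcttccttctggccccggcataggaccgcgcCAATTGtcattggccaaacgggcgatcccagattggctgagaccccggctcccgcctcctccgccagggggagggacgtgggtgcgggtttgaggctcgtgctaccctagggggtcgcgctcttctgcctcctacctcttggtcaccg
Il21: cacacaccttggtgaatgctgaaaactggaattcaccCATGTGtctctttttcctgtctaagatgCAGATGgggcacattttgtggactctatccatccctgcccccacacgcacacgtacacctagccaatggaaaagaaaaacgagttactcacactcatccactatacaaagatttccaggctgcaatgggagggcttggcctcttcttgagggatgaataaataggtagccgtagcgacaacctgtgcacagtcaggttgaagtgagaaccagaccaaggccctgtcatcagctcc

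**Figure D2:**
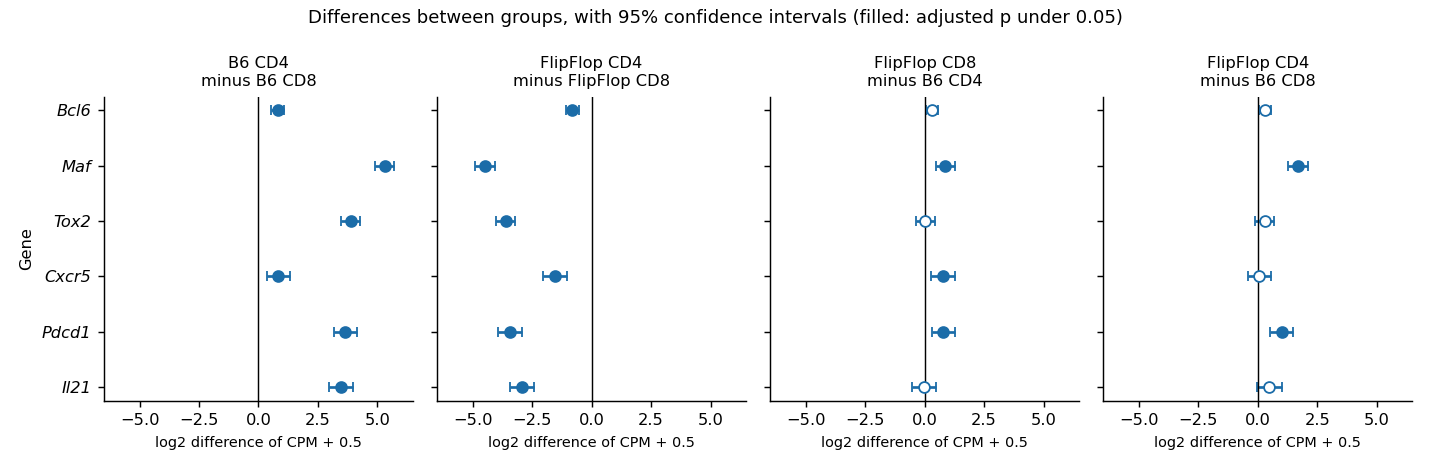
Differences of the 6 tested members between pairs of groups, as log2 difference of CPM + 0.5 with 95% confidence intervals; filled points are called at an adjusted p under 0.05. The CD4 minus CD8 differences are to the right of 0 for all 6 genes in B6 (0.81 to 5.30) and to the left of 0 for all 6 in FlipFlop mice (-4.49 to -0.81), and Maf and Pdcd1 are the genes called in both panels within a lineage.

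The helper-lineage groups differed from each other in some members and not detectably in others. Of the 6 tested members, 3 were called higher in FlipFlop CD8 than in B6 CD4, namely Cxcr5, Pdcd1 and Maf, against 13.2% of all tested genes. Bcl6 pointed the same way with 0.31 (0.04 to 0.57, limma adjusted p = 0.0766) and was called without B6 CD8 replicate 3 (adjusted p = 0.0389). The calls of Cxcr5 and Pdcd1 were each lost when B6 CD4 replicate 1, B6 CD4 replicate 3 or any FlipFlop CD8 library was left out, with differences of 0.63 to 0.85 for Cxcr5 and 0.65 to 0.85 for Pdcd1 and adjusted p-values of 0.0503 to 0.0911 and 0.0529 to 0.0694. The call of Cxcr5 was also lost when the libraries of these groups were fitted alone (adjusted p = 0.0521). Between the cytotoxic-lineage groups, 2 members, Pdcd1 and Maf, were called higher in FlipFlop CD4 than in the B6 CD8 group, against 4.17% of all tested genes. The call of Pdcd1 was lost without FlipFlop CD4 replicate 1, FlipFlop CD4 replicate 3 or B6 CD8 replicate 1 (0.77 to 0.95, adjusted p = 0.0578 to 0.0658), and with the libraries of these groups fitted alone (1.0, adjusted p = 0.0503). Bcl6 differed by 0.30 between these groups (0.04 to 0.57, adjusted p = 0.160) and was called without B6 CD8 replicate 3 (0.44, adjusted p = 0.0380). Cxcr5 differed by 0.07 (-0.42 to 0.56, adjusted p = 0.889).

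The order of the group means was therefore FlipFlop CD8, B6 CD4, FlipFlop CD4 and B6 CD8 for Bcl6, Maf, Cxcr5 and Pdcd1. Neighbours in that order were all called apart for Maf and Pdcd1, while FlipFlop CD8 and B6 CD4 T cells were not called apart for Bcl6, nor FlipFlop CD4 and B6 CD8 T cells for Bcl6 and Cxcr5. For Tox2 and Il21, B6 CD4 and FlipFlop CD8 T cells were not called apart, and neither were FlipFlop CD4 and B6 CD8 T cells. B6 CD4 exceeded FlipFlop CD4 T cells, which carry the same coreceptor protein, in all 6 tested members, with differences of FlipFlop CD4 minus B6 CD4 from -3.61 (Maf) to -0.51 (Bcl6, limma adjusted p = 0.00795), against 15.7% of all tested genes called lower.

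Over all 4 groups, the lineage effect (the mean of B6 CD4 and FlipFlop CD8 minus the mean of B6 CD8 and FlipFlop CD4) was called for all 6 tested members, against 19.9% of all tested genes called higher and 39.3% called in either direction. It was 0.81 for Bcl6 (0.63 to 1.0), 1.19 for Cxcr5 (0.84 to 1.53), 3.20 for Il21 (2.84 to 3.56), 3.55 for Pdcd1 (3.20 to 3.89), 3.74 for Tox2 (3.46 to 4.02) and 4.89 for Maf (4.6 to 5.19), with limma adjusted p-values of 6.6e-05 (Cxcr5) or less. The coreceptor effect (the mean of the CD4 groups minus the mean of the CD8 groups) was called by limma for 0 members, against 5.49% of all tested genes, and 2 of them, Cxcr5 and Maf, had an unadjusted p under 0.05. It was 0.41 for Maf (0.11 to 0.70, adjusted p = 0.115) and was called without B6 CD4 replicate 1 (0.50, adjusted p = 0.0352). For Cxcr5 it had the opposite sign, at -0.35 (-0.70 to -0.0040, limma adjusted p = 0.262). The strain effect (the mean of the FlipFlop groups minus the mean of the B6 groups) was called higher for 3 members, against 15.8% of all tested genes called higher and 31.2% called in either direction: 1.28 for Maf (0.99 to 1.57, adjusted p = 5.3e-05), 0.89 for Pdcd1 (0.54 to 1.24, adjusted p = 0.00213) and 0.31 for Bcl6 (0.12 to 0.49, adjusted p = 0.0206). The call of Bcl6 was lost without FlipFlop CD4 replicate 3 (0.28, adjusted p = 0.0510) or B6 CD8 replicate 2 (0.25, adjusted p = 0.0517). Cxcr5 had a strain effect of 0.42 (0.07 to 0.77, adjusted p = 0.0624), which was called without B6 CD4 replicate 2 (0.54, adjusted p = 0.0164) or FlipFlop CD4 replicate 2 (0.51, adjusted p = 0.0352).

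Other genes of the pathway were read in 4 lists. Of 17 receptors and help molecules of follicular helper cells, 14 had a lineage effect toward the helper-lineage groups, 0 toward the other groups by limma and 3 were not called, against 19.9% of all tested genes called higher. Their median was 0.84, beside -0.03 over all tested genes. The largest were Tnfrsf4 (OX40, a costimulatory receptor) with 5.46, Cd40lg (CD40 ligand, the contact signal to B cells) with 4.94, Tigit (an inhibitory receptor) with 3.95 and Cd200 (a surface glycoprotein) with 2.16. Cd40lg rose from 0.816 ± 0.347 CPM in B6 CD8 to 75.0 ± 2.64 CPM in B6 CD4 T cells (SD, n = 3), and it stood at 2.93 ± 0.611 CPM in FlipFlop CD4 libraries and 54.2 ± 3.82 CPM in FlipFlop CD8 T cells. Icos, the costimulatory receptor that follicular helper cells depend on, stood at 129 ± 13.5 CPM in B6 CD4 libraries and 243 ± 13 CPM in FlipFlop CD8 T cells, a difference called at 0.92 (limma adjusted p = 1.7e-05). Il4, which is among the called genes but reached 1 CPM in FlipFlop CD8 libraries only and so passed the filter through them, was read in no cytotoxic-lineage library and had 0.646 ± 0.303 CPM in B6 CD4 libraries and 1.62 ± 0.177 CPM in FlipFlop CD8 T cells.

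Of 13 transcription factors that act before or beside BCL6, 7 had a lineage effect toward the helper-lineage groups, 1 toward the others and 5 were not called, with a median of 0.28, against 19.9% of all tested genes called higher and 39.3% called in either direction. Irf4, needed early for Bcl6 induction, had 1.57, Id3, an inhibitor of E proteins, 0.74, Egr2, a factor induced by T cell receptor signals, 0.69 and Batf, the partner of IRF4, 0.61, the last without a call between B6 CD4 and B6 CD8 (0.41, limma adjusted p = 0.0550). Lef1, which acts upstream of Bcl6, had -0.33 (limma adjusted p = 9.2e-05), but its CD4 minus CD8 difference was called in FlipFlop and not in B6 mice. Its mean was 316 ± 17.0 CPM (SD, n = 3) in FlipFlop CD8 and 533 ± 20.6 CPM in FlipFlop CD4 libraries (CD4 minus CD8 0.75, adjusted p = 2.1e-06). In B6 mice it was 469 ± 17.0 CPM in CD4 and 437 ± 8.64 CPM in CD8 libraries (0.10, adjusted p = 0.289), and the coreceptor effect of Lef1 was 0.43 (adjusted p = 2.2e-04). Of 15 antagonists and genes of exit from the follicle, 5 had a lineage effect toward the helper-lineage groups, 2 toward the others and 8 were not called, with a median of -0.01. The 7 of 15 called genes are near the 39.3% of all tested genes called in either direction. The largest was Il2ra, the IL-2 receptor alpha chain whose signals oppose BCL6, with 5.38, and the next was Prdm1, which encodes BLIMP-1, with 1.97. Gpr183, a receptor that keeps cells at the follicle border, had 0.72 and Selplg, which encodes PSGL-1, had -0.54. Prdm1 moved with Bcl6 and not against it: its mean was 9.92 ± 3.13 CPM in B6 CD4 libraries and 17.4 ± 1.55 CPM in FlipFlop CD8 libraries, but 4.02 ± 0.784 CPM in FlipFlop CD4 libraries and 2.19 ± 0.701 CPM in B6 CD8 libraries.

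Of 21 relatives, ligands and partners of the members, 16 were listed and 14 tested, of which 3 had a lineage effect toward the helper-lineage groups and 1 toward the others, with a median of -0.04. The 3 of 14 called higher stand beside 19.9% of all tested genes, and the 4 of 14 called in either direction beside 39.3%. Pdcd1lg2, which encodes a ligand of PD-1, had 1.62, Mafg, a small MAF protein, 0.47 and Tox, the relative of Tox2 known from exhausted T cells, 0.41. Tox is also counted among the 7 called transcription factors above, and Il21r among the receptors and help molecules. Cxcr6, a chemokine receptor of effector cells, had -1.73 and fell in FlipFlop CD4 relative to B6 CD8 T cells by 1.70 on the log2 scale (limma adjusted p = 9.6e-04). Its CD4 minus CD8 difference was -3.40 in B6 mice (adjusted p = 6.1e-07) and 0.05 in FlipFlop mice (adjusted p = 0.900), and its coreceptor effect was -1.67 (adjusted p = 1.8e-04). Il21r, the receptor of IL-21, was read at 250 ± 17.8 to 286 ± 9.20 CPM in all groups and was not called for the lineage effect (-0.07, adjusted p = 0.321). None of the lists was compared with another by a test.

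**Figure D3:**
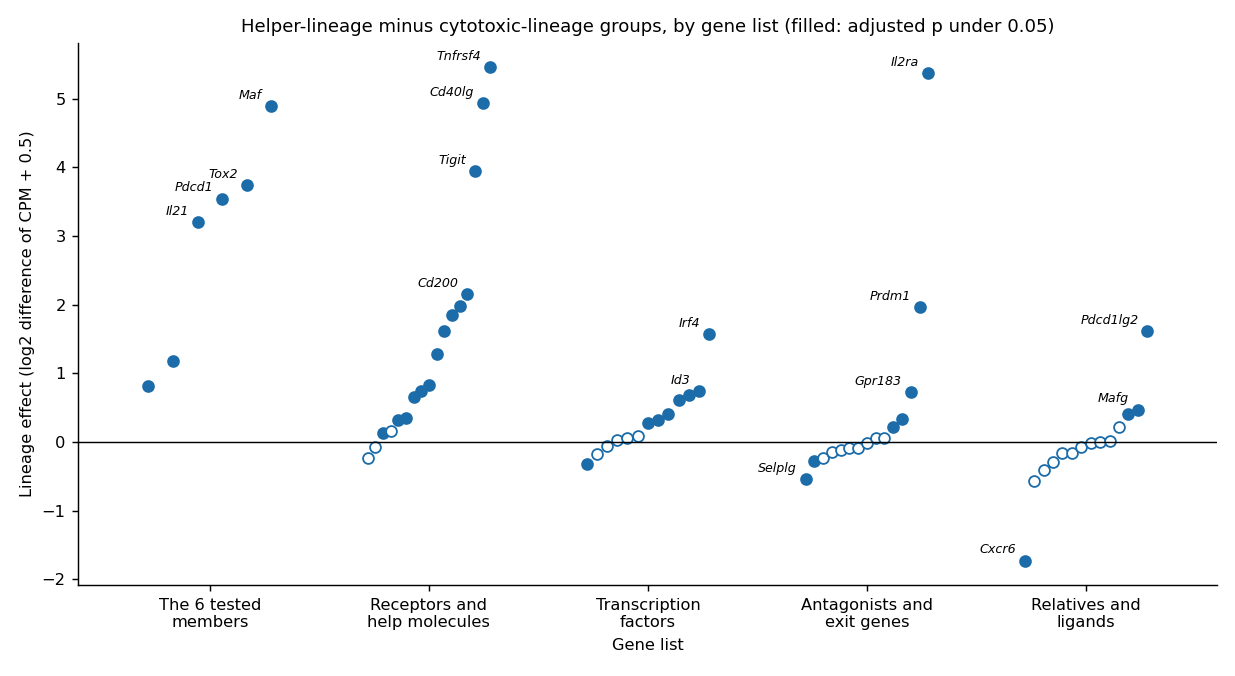
Lineage effect, as log2 difference of CPM + 0.5, of each tested gene in the 5 gene lists; filled points are called at an adjusted p under 0.05, and the called genes with the largest effects are named where their points are far enough apart. All 6 members and 14 of 17 receptors and help molecules lie above 0 as filled points, as do 7 of 13 transcription factors, with 1 below 0, whereas the antagonists (5 above and 2 below 0) and relatives (3 above and 1 below 0) have more genes that are not called than called.

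Markers of regulatory T cells moved with the members between the lineages. Between FlipFlop CD8 and B6 CD4 only Maf, Pdcd1 and Cxcr5 did so, while Bcl6, Tox2 and Il21 were not called and Ascl2 had nearly equal means. All 11 markers had a lineage effect toward the helper-lineage groups, against 19.9% of all tested genes, and 10 of 11 were higher in FlipFlop CD8 than in B6 CD4, against 13.2%. One of them, Lrrc32, reached 1 CPM in helper-lineage libraries only, and Tnfrsf4 and Il2ra are also the genes with the largest effects among the help molecules and antagonists above. They summed to 607 to 730 CPM in the B6 CD4 libraries, to 1379 to 1579 CPM in FlipFlop CD8, to 98.5 to 110.1 CPM in FlipFlop CD4 and to 92.7 to 96.4 CPM in the B6 CD8 libraries. For the strain effect, 8 of 11 were called higher in FlipFlop mice, against 15.8% of all tested genes. Foxp3, the defining factor and the marker with the highest mean, had a mean of 108 ± 18.1 CPM (SD, n = 3) in the B6 CD4 libraries, of 326 ± 31.1 CPM in FlipFlop CD8, of 1.99 ± 0.355 CPM in FlipFlop CD4 and of 0.967 ± 0.433 CPM in the B6 CD8 libraries. Between FlipFlop CD4 and B6 CD8, 5 of 11 markers were called higher, among them Foxp3 (0.80, limma adjusted p = 0.0272), against 4.17% of all tested genes, and 6 were not called, of which Gpr83 (-0.59), Tnfrsf18 (-0.20) and Capg (-0.04) were below 0. The part of regulatory T cells in the levels of Maf, Pdcd1, Cxcr5, Tox2 and Bcl6 was not tested. The 9 markers of effector or memory T cells summed to 556 to 680 CPM in the B6 CD4 libraries and to 1114 to 1623 CPM in FlipFlop CD8, with 6 of 9 called higher in FlipFlop CD8, against 13.2% of all tested genes. They summed to 561 to 617 CPM in FlipFlop CD4 libraries and to 897 to 991 CPM in B6 CD8 libraries. Between these groups S100a4 was called higher in FlipFlop CD4 (1.08, limma adjusted p = 0.0173), Il2rb was called lower (-0.70, adjusted p = 4.7e-04) and 7 of 9 markers were not called. For the lineage effect, 4 of 9 were called toward the helper-lineage groups, namely S100a4 (3.59), S100a6 (2.48), Cd44 (1.35) and Itgb1 (0.78), and 0 toward the others by limma, against 19.9% of all tested genes called higher. Il2rb, Ccl5 and Cxcr3, which enter the same sums, were called lower in B6 CD4 than in B6 CD8 (-1.0, -2.90 and -1.40), beside 3 markers called higher. For the coreceptor effect, 6 of 9 were called lower and 0 higher by limma, with a median of -0.63. Of all tested genes, 5.49% were called for that effect in either direction. The part of memory or effector cells in the members' levels was not tested. The sum of the 6 naive T cell markers came to 4866 to 5356 CPM in the B6 CD4 libraries, to 4072 to 4290 CPM in FlipFlop CD8, to 5047 to 5521 CPM in FlipFlop CD4 and to 5268 to 5545 CPM in the B6 CD8 libraries.

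Markers of B cells, which use Bcl6 and Cxcr5, were read in every group. The 10 B cell markers summed to 61.2 to 79.5 CPM in the B6 CD4 libraries, to 45.6 to 49.3 CPM in FlipFlop CD8, to 44.9 to 66.5 CPM in FlipFlop CD4 and to 58.8 to 81.4 CPM in the B6 CD8 libraries. Cd79b, the marker with the highest mean, stood at 14.9 CPM in B6 CD4, 15.6 in FlipFlop CD8, 25.5 in FlipFlop CD4 and 31.4 in B6 CD8. It alone of the 9 tested was called for the lineage effect, toward the cytotoxic-lineage groups, against 39.3% of all tested genes called in either direction. The median of the 9 was 0.26. Cd79a, by contrast, was lowest in FlipFlop CD4 (9.15 CPM) and highest in B6 CD4 (18.2 CPM). Of the 9 tested B cell markers, 0 were called higher and 6 lower in FlipFlop CD8 than in B6 CD4 by limma, against 14.4% of all tested genes called lower. Their part in the levels of Bcl6 and Cxcr5 was not tested. Of 6 tested myeloid markers, 3 had a lineage effect toward the helper-lineage groups, against 19.9% of all tested genes, namely Itgam (1.42), Lyz2 (1.09) and Csf1r (0.72). Of these, Itgam alone was also called between B6 CD4 and B6 CD8. Itgax was called the other way in that comparison (-1.65, limma adjusted p = 0.0108) and was not called for the lineage effect. The myeloid sum was 85.9 to 98.5 CPM in B6 CD4, 71.8 to 89.4 in FlipFlop CD8, 54.4 to 70.3 in FlipFlop CD4 and 80.1 to 89.6 in B6 CD8. Of 3 tested NK cell markers, 1 had a lineage effect that was called, namely Klrb1c (1.45), against 19.9% of all tested genes called higher. Klrb1c was also called lower for the coreceptor effect, against 5.49% of all tested genes called in either direction. Gzma was called lower in B6 CD4 than in B6 CD8 (-1.35, limma adjusted p = 0.0468). The sum of the 3 markers was 12.9 to 15.7 CPM in FlipFlop CD8 libraries and 4.16 to 8.75 CPM in all others. The 3 tested red blood cell markers had lineage effects of 0.14 to 0.27 that were not called (limma adjusted p = 0.171 or more). All 3 had a strain effect and were lower in FlipFlop mice, with a median of -0.85, against 31.2% of all tested genes called for the strain effect in either direction, and their sum was 14.2 to 27.4 CPM in the B6 and 6.17 to 13.6 CPM in the FlipFlop libraries. The part of these cells in the members' levels was not tested.

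**Figure D4:**
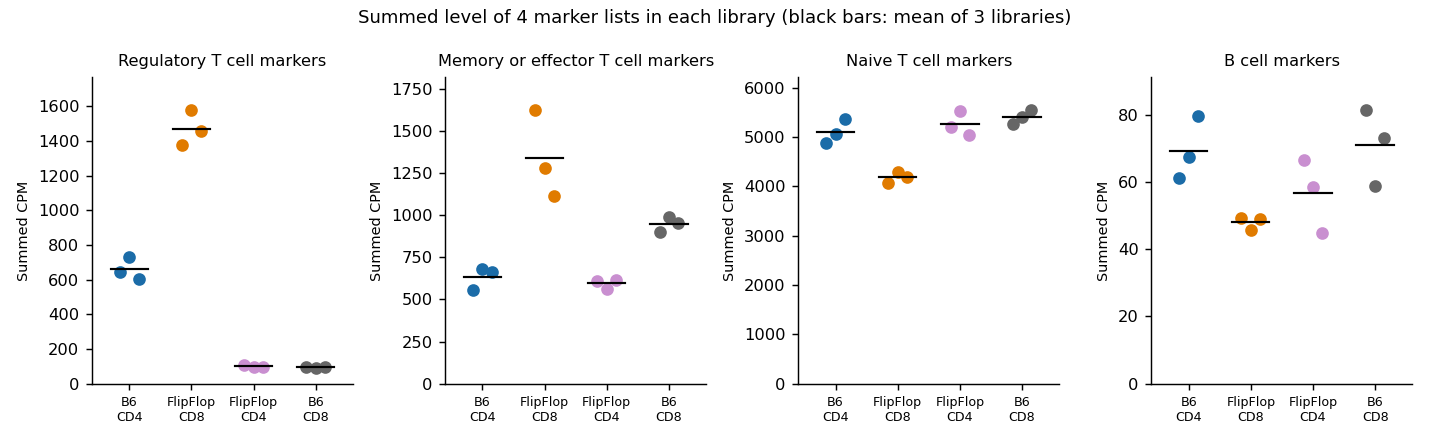
Summed CPM of the markers of B cells, naive T cells, regulatory T cells and effector or memory T cells in each library, by group, on linear axes from 0; black bars are means of 3 libraries. The regulatory T cell sum is highest in FlipFlop CD8 (1379 to 1579 CPM) and next in B6 CD4 libraries (607 to 730 CPM). Mean levels of Maf, Pdcd1, Cxcr5 and Bcl6 have the same order, whereas Tox2, Ascl2 and Il21 have similar means in these groups. The B cell sum, in which Cd79b has the highest mean, is lowest in FlipFlop CD8 libraries on average.

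Across the 12 libraries, which share their groups, the members resembled each other to different degrees. Pearson's r of log2(CPM + 0.5) ranged from 0.85 (Cxcr5 and Il21) to 0.99 (Pdcd1 and Maf) over the 15 pairs of tested members. The tested genes most like Bcl6 were Gadd45b (r = 0.98), Tbc1d30 (0.98) and Prdm1 (0.97), and those most like Cxcr5 were Slc12a8 (0.97), Gm31718 (0.97) and Lclat1 (0.96). Asb2 (0.99), Maf (0.99) and Il9r (0.99) were most like Pdcd1, and St3gal2 (0.99), Itga7 (0.99) and Pdcd1 (0.99) most like Maf. For Tox2 they were Ccr8, H1f0 and Zbtb7b (0.99 each), and for Il21 they were Cers6, Ccr8 and Zbtb7b (0.99 each). These correlations describe 12 libraries in 4 groups, and a gene that separates the lineages is alike to all such genes.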

How the data were processed

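RNA was extracted from sorted LN T cells, libraries were made with a kit for low RNA input, and paired-end reads were aligned to mm10. The methods name STAR as the aligner, whereas the submitters' processing notes list Trimmomatic and TopHat; the counting program, the annotation and the filter on low values are not given in the sources used here. The authors deposited a table of expression signal, namely CPM divided by a TMM factor, with 1 column per library, so that columns sum to 875501 to 1081793. All 12809 identifiers matched GENCODE M21, which gave positions and exon lengths. The members and gene lists were chosen with earlier results of these data known.

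From the deposited signal, the value of 1 read was recovered per library. Of the values under 100 CPM, 85.6% to 87.0% were whole reads (within 0.02 of a read). As 95% had been required, no test of differences was run on counts, although the members' values all came out whole. The exact counting intervals of Il21 use reads pooled over each group and cover counting error only. The 11595 genes that reached 1 CPM in 3 or more libraries (1214 were left out) were fitted as log2(CPM + 0.5) with limma 3.58.1 (lmFit, eBayes with a trend) in R 4.3.3. The fit had a mean for each group and 8 residual degrees of freedom over the 12 libraries. It was tested on simulated data. The limit of a count of 0 is 3 reads. Named genes were the members, the 3 genes most correlated with each, and the 4 largest called genes of each list. Others, such as Icos, Il4, Il21r and Lef1, were named after their values were seen. Figures were drawn with matplotlib 3.10.9.

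The replicate numbers of the labels were checked by correlating deviations of CD4 and CD8 libraries from their group means. Same-numbered libraries gave r = 0.44, 0.27 and 0.51 in FlipFlop mice and 0.18, 0.089 and 0.35 in B6 mice, so by a limit of 0.1 for every pair the numbers pair the FlipFlop libraries. What they share is not given in the sources used here. The alternatives were pseudocounts of 0.1 and 1, no filter, a mean of at least 5 CPM, the TMM factor taken out, rescaling by median of ratios, fits of the compared groups only, other thresholds, a replicate block and each library left out in turn.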

Additional observations from a re-analysis of the deposited data

Results flagged for a closer look

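For all 6 tested members the CD4 minus CD8 difference of B6 mice differed from that of FlipFlop mice. The difference of these differences, B6 minus FlipFlop, was tested by limma as an interaction over 11595 genes and was 1.63 for Bcl6 (adjusted p = 8.8e-06), 2.38 for Cxcr5 (adjusted p = 6.6e-05), 6.41 for Il21 (adjusted p = 1.3e-08), 7.09 for Pdcd1 (adjusted p = 4.3e-09), 7.49 for Tox2 (adjusted p = 4.6e-10) and 9.79 for Maf (adjusted p = 8.0e-11), in log2 units. In each case CD4 T cells were higher than CD8 T cells in B6 mice and lower in FlipFlop mice. Of all tested genes, 39.3% were called in this test. The interaction is the lineage effect given above multiplied by 2, with the same p-values, and is no separate test.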

How the results depend on the processing

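Under the alternatives, 135 of the 151 recomputed counts of called members stayed within 1.5 times of the reported ones. The exceptions were as follows. In FlipFlop CD8 minus B6 CD4, 1 member was called at an adjusted p under 0.01 and 0 at an unadjusted p under 0.0001 with over 5-fold change, and leaving out 1 library at a time gave 1 to 4. In FlipFlop CD4 minus B6 CD8, 1 was called with only the libraries of the groups compared, 1 at the stricter adjusted p and 0 at the 5-fold limit, and leaving out 1 library gave 1 to 3. The coreceptor effect was called for 1 member (Maf) with a replicate block and for 0 to 1 with 1 library left out. The strain effect was called for 0 at the 5-fold limit and for 2 to 4 with 1 library left out. The replicate block called 2 more members, Bcl6 between FlipFlop CD8 and B6 CD4 (0.31, adjusted p = 0.0477) and Maf in the coreceptor effect (0.41, adjusted p = 0.0245), and changed no other call. The former block ties libraries of different strains by number alone, and the latter includes the B6 libraries, whose numbers did not meet the limit for pairing. The paired permutation of Ascl2, added after the data were seen, gave p = 0.0125 in an exact test. Signs turned only for differences that were not called. These were Il21 between FlipFlop CD8 and B6 CD4 without the TMM factor (0.11), and, with 1 library left out, the same difference (-0.28 to 0.21), Tox2 in that comparison (-0.13 to 0.25), Cxcr5 between FlipFlop CD4 and B6 CD8 (-0.17 to 0.26) and the coreceptor effects of Bcl6 (-0.052 to 0.069) and Pdcd1 (-0.0082 to 0.21). Without the TMM factor the median of all genes moved by -0.17 in FlipFlop CD4 minus FlipFlop CD8, 0.16 in FlipFlop CD8 minus B6 CD4, 0.12 in the lineage effect and 0.11 in the strain effect, and Bcl6 (0.47) between FlipFlop CD8 and B6 CD4 and Cxcr5 (0.53) in the strain effect were then called. With a pseudocount of 0.1 the strain effect of Il21 (0.70) was called. The cause of these changes was not tested. For Ascl2 and for Il21 in B6 CD8 T cells, depth limits the values to a few reads.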

Other observations

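Strain effects were also read in the genes beside each member, taken as the 5 tested genes on either side along the chromosome. Of 10 neighbours, 1 was called beside Cxcr5 and Maf, 2 beside Bcl6 and Pdcd1, 3 beside Tox2, 5 beside Il21 and 6 beside Ascl2, against 31.2% of all tested genes. The neighbours of Ascl2 that were called were all higher in FlipFlop mice, with the largest effect in Cd81 (0.85). Beside Il21, 4 of 5 called genes were higher, with the largest effect in Ccna2 (0.78), and beside Tox2 it was in Serinc3 (-0.92). Beside Cxcr5 the called gene was Kmt2a (0.80), and the called genes with the largest effects beside Bcl6, Pdcd1 and Maf were Ccdc50 (0.36), Gm15427 (-0.31) and Cmc2 (-0.29). Ascl2 itself had 72 reads in FlipFlop CD8 and 64 reads in B6 CD4 libraries, and Tox2 and Il21 were not called for the strain effect.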
